A study of Mus musculus with 2 samples.

Results

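The 10 genes described here are immunity-related GTPases: Irgm1, Irgm2, Igtp, Iigp1, Tgtp1, Tgtp2, Ifi47, Gm12250, F830016B08Rik and BC023105. They were picked by symbol from the 29217 genes that either of the single-cell libraries lists, 23160 of which are in both lists, and all 10 were found in both. The choice was made with their values in these libraries known, so the levels and ratios below are descriptions of these libraries. Immunity-related GTPases are large interferon-induced GTPases that in mice act against pathogens living in vacuoles inside cells. The regulatory members Irgm1, Irgm2 and Igtp sit on the cell's own membranes and hold the effector members inactive there, whereas the effectors, among them Iigp1, Tgtp1, Tgtp2, Ifi47 and Gm12250, load onto the vacuole around the pathogen. Interferon gamma is a strong inducer of the family and acts through its receptor and the kinases Jak1 and Jak2, while type I interferon acts through a separate receptor.

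The study made single-cell RNA libraries of Balb/c mouse brain, 1 titled positive and 1 titled control, with the Singleron GEXSCOPE kit, which captures cells on a microfluidic chip and marks each RNA molecule with a unique molecular identifier (UMI). Both carry the label TNBC for molecular typing, that is triple-negative breast cancer, and the treatment label names 4T1 metastasis, 4T1 being a carcinoma line from a mouse mammary gland. The treatment label contradicts the titles, since it places the titled positive library among those without 4T1 metastasis and the titled control library among those with it. Each library is therefore called by its title, and nothing is said of brains with metastasis against brains free of it. How many animals went into each library, their age and how the tumour cells were given are not stated in the labels used here. With 1 library per group there is no replicate and no test: intervals are exact 95% intervals (Poisson for levels, Clopper-Pearson for shares, conditional binomial for ratios) that cover counting error only, so nothing below separates the groups from the libraries, animals or days of preparation.

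RefSeq (GRCm38.p6) promoters are described for 7 of the 10 genes. The other 3 genes were left out of this part by choice, so nothing is said of their promoters. Of the 5 described promoters that hold both letter patterns known for interferon response, 4 are shown. The window of the fifth, Tgtp1, overlaps annotated exons by 12 bases and is not printed. The patterns are the ISRE-type one (GAAA, any 2 bases, GAAA), the kind of site that interferon regulatory factors bind, and the GAS-type pattern (TTCNNNGAA), the kind named for interferon gamma activated sites. Each line is the 120 bases before the RefSeq start, 5′ to 3′ on the strand of the gene, with matches on either strand in capitals.
Igtp: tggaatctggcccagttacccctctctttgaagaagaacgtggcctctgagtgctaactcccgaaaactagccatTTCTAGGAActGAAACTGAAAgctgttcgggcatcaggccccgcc
Irgm2: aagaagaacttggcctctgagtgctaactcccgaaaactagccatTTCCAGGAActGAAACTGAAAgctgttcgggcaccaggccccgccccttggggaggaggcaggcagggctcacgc
Tgtp2: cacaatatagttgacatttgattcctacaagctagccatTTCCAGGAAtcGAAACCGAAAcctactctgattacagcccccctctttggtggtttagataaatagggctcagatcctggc
Gm12250: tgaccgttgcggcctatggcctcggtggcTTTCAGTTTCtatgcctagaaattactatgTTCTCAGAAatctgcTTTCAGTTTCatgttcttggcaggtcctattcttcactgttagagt
The windows are chr11:58199436-58199555 (Igtp, plus strand), chr11:58214857-58214976 (Irgm2, plus strand), chr11:49064213-49064332 (Tgtp2, minus strand) and chr11:58183723-58183842 (Gm12250, plus strand, where RefSeq places the start upstream of the GENCODE one). In Igtp, Irgm2 and Tgtp2 the GAS-type pattern stood 2 bases ahead of the ISRE-type one, at 45 to 37 and 34 to 25 bases before the start in Igtp, 75 to 67 and 64 to 55 in Irgm2, and 81 to 73 and 70 to 61 in Tgtp2. Tgtp1 had the same arrangement at 88 to 80 and 77 to 68 bases. Gm12250 held an ISRE-type match on the reverse strand on either side of its GAS-type match, at 91 to 82 and 46 to 37 bases around 61 to 53. Irgm1 had a pair of overlapping ISRE-type matches and no GAS-type match, but all 120 bases before its RefSeq start lie in annotated exons. The Ifi47 window matched neither pattern. Within 250 bases before the start, 2.98% of all 32851 RefSeq promoters held the ISRE-type pattern, 7.02% the GAS-type pattern and 0.332% both. The counts among the 7 members described were 6, 5 and 5, and the other 3 members are not in these counts. The joined arrangement, the GAS-type pattern 2 bases ahead of the ISRE-type one, was searched after these sequences had been seen and was in 5 promoters in all: Igtp, Irgm2, Tgtp1, Tgtp2 and Gm12185, a further gene of the family. A match describes letters only and shows no binding.

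By GENCODE M21 on GRCm38, 7 of the 10 genes lie on chromosome 11 and the other 3 (Iigp1, F830016B08Rik and BC023105) on chromosome 18. Irgm1 (48861968 to 48871683, minus strand), Tgtp1 (48985327 to 48994172, minus strand), Tgtp2 (49057194 to 49064206, minus strand) and Ifi47 (49076587 to 49096974, plus strand) form one stretch of chromosome 11. Gm12250 (58187739 to 58189012), Igtp (58199556 to 58207591) and Irgm2 (58199618 to 58222782), all on the plus strand, form another. Gm12250 and BC023105 are annotated there as processed pseudogenes and the other 8 as protein-coding. The annotated spans of Igtp and Irgm2 overlap on one strand, and Tgtp1, Tgtp2 and Ifi47 each overlap a neighbouring gene. Of all 50-base windows of its transcripts, Tgtp2 shared 86.6% with another gene and Tgtp1 81.2%, nearly all with each other, so the division of reads between this pair is uncertain. The share was 14.7% for BC023105, 11.8% for Igtp, 7.77% for Irgm2 and at most 2.54% for the other 5. All of the BC023105 share was with Gm4841, another gene of the family. Counts of BC023105 and of the overlapping pair Igtp and Irgm2 are therefore also uncertain.

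The titled positive library held 10842 barcodes and 98141261 UMIs, and the titled control library 10417 barcodes and 55657687 UMIs; after filters and doublet removal 10435 and 9495 cells were kept, with medians of 7241 and 4105 UMIs. Cells were clustered without the 10 genes or the interferon-related lists and named from markers; the names carry "like" since the types rest on those markers alone. The classes with at least 50 cells in both libraries were oligodendrocyte-like (848 titled positive and 3506 titled control cells), microglia-like (644 and 2307), monocyte or macrophage-like (2190 and 133), T or NK cell-like (201 and 91), dendritic cell-like (97 and 66) and endothelial-like (75 and 458). Carcinoma-like (5837) and neutrophil-like (152) cells reached that number in titled positive brain only, and astrocyte-like (1875), ependymal or choroid plexus-like (194), pericyte or smooth muscle-like (126) and fibroblast or meningeal-like (94) cells in titled control brain only. In each class most of its own markers were at least 2-fold above the other cells of the library, for example 10 of 10 in the oligodendrocyte-like cells of both libraries; Klra8 and Klra4 were at 0 in titled positive and Klra8 in titled control T or NK cell-like cells, and Arg1 in titled control macrophage-like cells. The libraries shared 149 barcodes, 134 of them among kept cells.

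Each library was ranked over the classes with at least 50 cells in that library. The summed level of the 10 genes was then highest in oligodendrocyte-like cells in titled positive brain and lowest in oligodendrocyte-like cells in titled control brain. Levels are UMIs of the 10 genes per 1000000 UMIs of the class (counts per 1000000, CPM). The titled positive classes ran in the order oligodendrocyte-like at 6001.5 CPM (5930 to 6073), endothelial-like at 4247 CPM (4074 to 4425), microglia-like at 2699 CPM (2645 to 2754), carcinoma-like at 2242 CPM (2230 to 2254), macrophage-like at 1783 CPM (1761 to 1806), dendritic cell-like at 1484 CPM (1377 to 1596), T or NK cell-like at 1014 CPM (958 to 1072) and neutrophil-like at 629 CPM (581 to 679). No neighbours in that order had overlapping counting intervals. The 28 titled positive fibroblast or meningeal-like cells, too few to be ranked, stood above all of these at 7740 CPM (7361 to 8134). The titled control classes ran in the order fibroblast or meningeal-like at 666 CPM (597 to 741), endothelial-like at 628 CPM (597 to 661), T or NK cell-like at 622 CPM (546 to 706), macrophage-like at 511 CPM (457 to 569), ependymal or choroid plexus-like at 341 CPM (313 to 371), microglia-like at 181 CPM (172 to 190), dendritic cell-like at 162 CPM (126 to 206), pericyte or smooth muscle-like at 87.8 CPM (63.5 to 118), astrocyte-like at 69.6 CPM (63.6 to 76.0) and oligodendrocyte-like at 11.1 CPM (9.83 to 12.6). Each of the first 4 overlapped its neighbour in interval, as did microglia-like with dendritic cell-like and pericyte-like with astrocyte-like cells, so these neighbours are not ordered beyond counting error. Of these titled positive classes, only the neutrophil-like level lay within the range of the titled control classes.

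**Figure D1:**
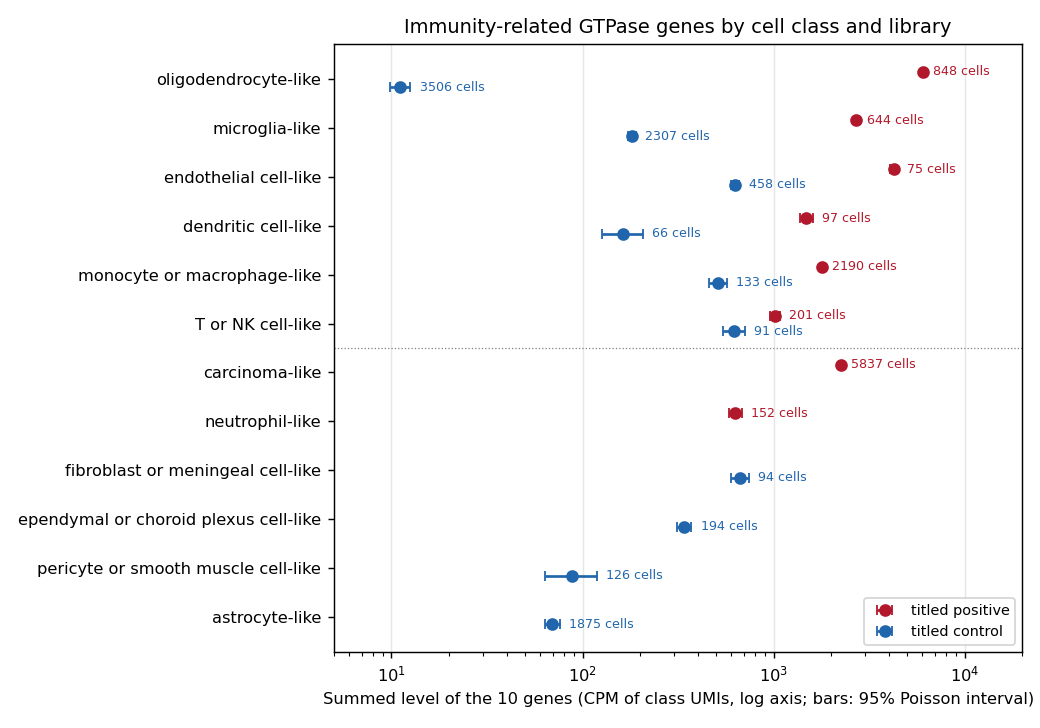
Summed level of the 10 immunity-related GTPase genes (CPM, log axis) in each class with at least 50 cells, titled positive and titled control, with exact 95% Poisson intervals. The oligodendrocyte-like class is the highest of the titled positive classes shown (6001.5 CPM) and the lowest of the titled control classes shown (11.1 CPM).

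The oligodendrocyte-like cells differed most between the libraries. Summed over the 10 genes, the titled positive level was 6001.5 CPM and the titled control level 11.1 CPM, a log2 ratio of 9.07 (8.90 to 9.25), or 539-fold. Next came microglia-like cells with a log2 ratio of 3.90 (3.82 to 3.98), dendritic cell-like cells with 3.18 (2.83 to 3.58), endothelial-like cells with 2.76 (2.66 to 2.85), macrophage-like cells with 1.80 (1.65 to 1.97) and T or NK cell-like cells with 0.70 (0.50 to 0.91). The median gene tested lay between -0.34 and 0.18 in these 6 classes. In the oligodendrocyte-like class all 10 members were at least 4-fold higher in titled positive cells, where 6.71% of the 11668 genes with at least 50 UMIs were. The corresponding counts were 9 members in microglia-like cells (4.68% of genes), 5 in dendritic cell-like cells (3.9%), 5 in endothelial-like cells (1.95%), 3 in macrophage-like cells (5.76%) and 1 in T or NK cell-like cells (3.22%). No member was at least 4-fold lower in any of the 6 classes, where 4.15%, 7.1%, 2.39%, 5.04%, 3.55% and 2.41% of genes were, in the same order of classes. Members with 50 UMIs over both libraries numbered 10, 9, 5, 8, 9 and 7 in that order. Some reached that sum mainly through titled positive cells, among them all 5 in dendritic cell-like cells. In oligodendrocyte-like cells only Igtp (59) and Irgm1 (121) had at least 50 titled control UMIs. In microglia-like cells only Igtp (307), Irgm1 (930) and Irgm2 (130) did. The other members counted in these classes passed the filter only with their titled positive UMIs. The same held for every member counted as higher in macrophage-like and T or NK cell-like cells. For all these members the filter partly fixed the outcome of the counts in advance. Since the genes were chosen with these ratios known, the counts are no evidence about the family beyond these libraries.

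Among the regulators in oligodendrocyte-like cells, Igtp, which guards membranes of the cell from the effectors, was at 1600 CPM in titled positive and 2.49 CPM in titled control cells, a log2 ratio of 9.32 (8.96 to 9.72). Irgm1 is the member also tied to autophagy and to survival of immune cells in mice. It was at 1585 CPM in titled positive and 5.10 CPM in titled control cells, a log2 ratio of 8.27 (8.02 to 8.55). Irgm2 was at 184 CPM in titled positive and 0.844 CPM in titled control cells, a log2 ratio of 7.74 (7.14 to 8.49). The smallest of these 3 ratios was 219-fold, and all 3 regulators had UMIs in titled control cells, 59 for Igtp, 121 for Irgm1 and 20 for Irgm2.

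Iigp1, an effector that coats the vacuole of Toxoplasma in mice, showed the largest ratio among the members with a UMI in both libraries. It was at 1530 CPM in titled positive and 0.506 CPM in titled control oligodendrocyte-like cells, a 3022-fold ratio (1729 to 5852) on 12 titled control UMIs. Gm12250, which encodes an effector that acts with guanylate-binding proteins on bacteria in mouse macrophages although GENCODE M21 annotates it as a pseudogene, was at 719 CPM in titled positive and 0.338 CPM in titled control cells, a log2 ratio of 10.97 (10.08 to 12.27) on 8 titled control UMIs. These ratios rest on few titled control molecules, and their wide intervals cover counting error only. Tgtp2 was at 94.1 CPM in titled positive and 0.548 CPM in titled control cells, a log2 ratio of 7.37 (6.63 to 8.34). Its near copy Tgtp1 was at 21.3 CPM in titled positive and 0.253 CPM in titled control cells, a log2 ratio of 6.28 (5.22 to 7.87). This was the smallest of the 10 ratios in the class. Ifi47 is an effector named as an interferon gamma inducible protein. It was at 164 CPM in titled positive and 1.05 CPM in titled control cells, a log2 ratio of 7.26 (6.71 to 7.92). F830016B08Rik had 364 UMIs in titled positive and 0 UMIs in titled control cells, at least 637-fold higher against a floor of 3 UMIs in the class. BC023105 had 103 UMIs in titled positive and 0 in titled control cells, at least 180-fold higher against the same floor. The median log2 ratio of the 10 genes was 8.79, or 8.005 with these last genes at their bounds, and that of all genes tested was -0.22.

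**Figure D2:**
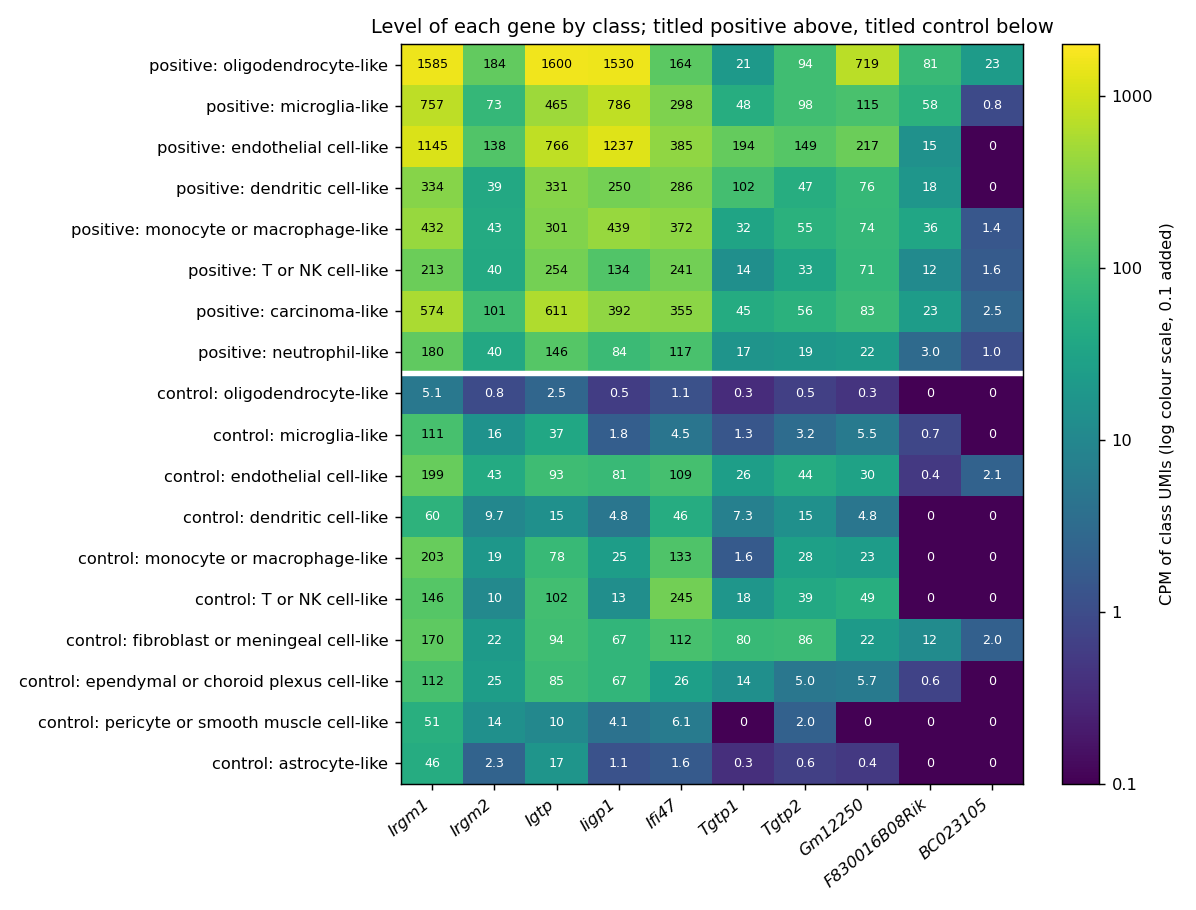
Level of each of the 10 genes (CPM, log colour scale) in each class with at least 50 cells, titled positive above and titled control below. In oligodendrocyte-like cells every gene is higher in titled positive than in titled control.

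Free RNA moved with this result, and its values are as follows. From the markers of other classes, an estimated 16.9% of the UMIs of titled positive and 7.28% of the UMIs of titled control oligodendrocyte-like cells were free RNA. Carcinoma markers summed to 885 CPM in titled positive oligodendrocyte-like cells and 8018 CPM in carcinoma-like cells, and stood at 0.149 times their whole-library level, whereas the 10 genes stood at 2.51 times theirs. With the library profile subtracted at the estimated share, the summed level was 6713 CPM in titled positive and 2.30 CPM in titled control oligodendrocyte-like cells, with 93.3% and 19.2% of the member UMIs left, and the log2 ratio was 11.50. In titled positive oligodendrocyte-like cells the subtracted levels of the least abundant members were 16.7 CPM for Tgtp1 and 26.7 CPM for BC023105. In titled control oligodendrocyte-like cells the subtracted level was 0 CPM for Iigp1, Tgtp1 and Ifi47 and 0.00976 CPM for Gm12250. The highest there were Irgm1 at 1.06 CPM and Igtp at 0.815 CPM. The ratios of single genes given above are without this subtraction. Median depth was 4796 UMIs per titled positive and 6168 UMIs per titled control oligodendrocyte-like cell. Summed oligodendrocyte markers were at 52481 CPM in titled positive and 111401 CPM in titled control cells of the class, and the part of this difference in the result was not tested.

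The members did not keep 1 ratio to each other across classes. Gm12250 had 4.37 UMIs per Ifi47 UMI (4.03 to 4.74) in titled positive oligodendrocyte-like cells, against 0.235 in carcinoma-like, 0.388 in microglia-like, 0.563 in endothelial-like and 0.199 in macrophage-like cells of the same library. Igtp had 9.73 UMIs per Ifi47 UMI (9.02 to 10.5) in titled positive oligodendrocyte-like cells and 1.72 in carcinoma-like cells. Tgtp1 had 0.226 UMIs per Tgtp2 UMI (0.179 to 0.282) in titled positive oligodendrocyte-like cells, 0.801 in carcinoma-like cells and 2.17 (1.30 to 3.73) in dendritic cell-like cells. Per Ifi47 UMI, titled positive oligodendrocyte-like cells thus held more Gm12250 and Igtp than the carcinoma-like cells did. As shares of the UMIs of the 10 genes, Ifi47 made up 2.7% in oligodendrocyte-like, 15.8% in carcinoma-like and 20.8% in macrophage-like cells of titled positive brain. Gm12250 made up 11.97%, 3.7% and 4.1% in the same 3 classes. Iigp1 varied less, with 25.5%, 17.5% and 24.6%.

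**Figure D3:**
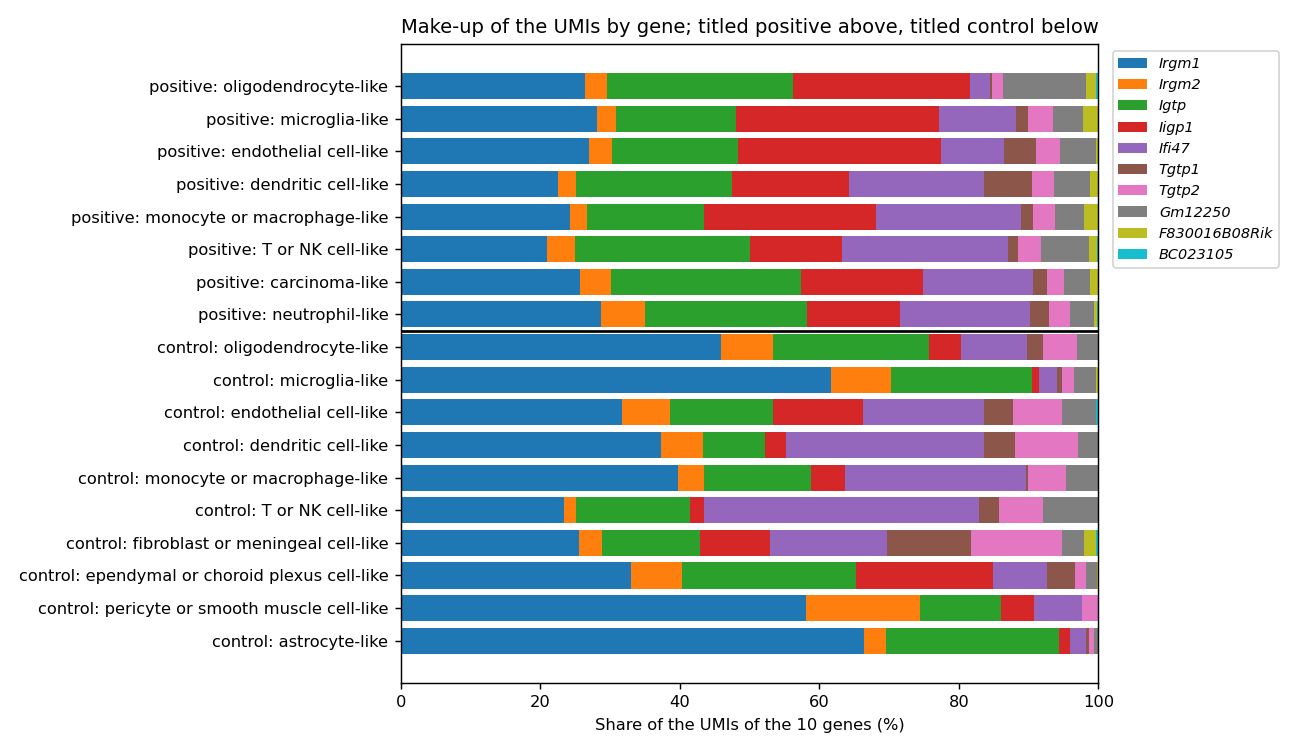
Share of the UMIs of the 10 genes (percent) taken by each gene, by class, titled positive and titled control. In titled positive oligodendrocyte-like cells Gm12250 takes 11.97% and Ifi47 2.7%, against 3.7% and 15.8% in carcinoma-like cells.

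In microglia-like cells the effectors differed more between the libraries than the regulators. Iigp1 was at 786 CPM in titled positive and 1.80 CPM in titled control microglia-like cells, a log2 ratio of 8.73 (8.05 to 9.61). Ifi47 was at 298 CPM in titled positive and 4.55 CPM in titled control cells, a log2 ratio of 6.01 (5.57 to 6.54). Irgm1 was at 757 CPM in titled positive and 111 CPM in titled control cells, a log2 ratio of 2.77 (2.66 to 2.87). The titled control microglia-like cells thus already held Irgm1, which made up 61.6% of their member UMIs, against 28.1% in titled positive cells; Iigp1 made up 29.1% in titled positive and 1.0% in titled control cells. Iigp1 had 1.04 UMIs per Irgm1 UMI in titled positive and 0.0161 in titled control cells. The log2 ratios of the other members were 6.22 for F830016B08Rik, 5.13 for Tgtp1, 4.89 for Tgtp2, 4.38 for Gm12250, 3.66 for Igtp and 2.23 for Irgm2, and BC023105 had 3 UMIs in titled positive and 0 in titled control cells. The microglia markers summed to 5025 CPM in titled positive and 31535 CPM in titled control microglia-like cells, and the part of this in the result was not tested. Of the titled control microglia-like clusters, 1 of 77 cells stood at 561 CPM (490 to 639), with the interferon-induced chemokine gene Cxcl9 at 42.0 CPM, and the other 2 clusters at 153 and 171 CPM.

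In dendritic cell-like cells, which take up and present antigen, 5 members were counted as at least 4-fold higher in titled positive brain, where 3.9% of 2639 genes were. Only these 5 reached 50 UMIs over both libraries, and they did so mainly through titled positive cells. That none of them had a smaller ratio is therefore no result. Iigp1 was at 250 CPM in titled positive and 4.84 CPM in titled control cells, with 122 and 2 UMIs, a 51.6-fold ratio (14.0 to 431). Igtp was at 331 CPM in titled positive and 14.5 CPM in titled control cells, a log2 ratio of 4.40 (3.36 to 5.98). Both intervals are wide because the titled control class held 67 UMIs of the 10 genes in 66 cells. The other log2 ratios were 3.67 for Gm12250, 3.61 for Tgtp1, 2.61 for Ifi47, 2.44 for Irgm1, 1.87 for Irgm2 and 1.61 for Tgtp2; F830016B08Rik had 9 UMIs in titled positive and 0 in titled control cells, and BC023105 had none in either. The summed log2 ratio of 3.18 was 1.76 when cells were clustered at resolution 2.

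In endothelial-like cells, which line the vessels, the titled control level was already among the highest of its library. Iigp1 was at 1237 CPM in titled positive and 81.3 CPM in titled control cells, a log2 ratio of 3.93 (3.69 to 4.17). Irgm1 was at 1145 CPM in titled positive and 199 CPM in titled control cells, a log2 ratio of 2.52 (2.35 to 2.70). The other members with at least 50 UMIs were also higher in titled positive cells, with log2 ratios of 3.04 for Igtp, 2.89 for Tgtp1, 2.83 for Gm12250, 1.82 for Ifi47, 1.78 for Tgtp2 and 1.68 for Irgm2. F830016B08Rik had 8 UMIs in titled positive and 1 in titled control cells, and BC023105 had 0 in titled positive and 5 in titled control cells. The cells of this class differed in vessel markers between the libraries: Ackr1, a marker of venules named after its values were seen, was at 2354 CPM in the 75 titled positive cells and at most 21.6 CPM in the titled control clusters of at least 89 cells, and Gkn3, an arterial marker, at 0 CPM in titled positive cells and 6842 CPM in the titled control cluster of 176 cells. Titled control endothelial-like clusters of 184, 176 and 89 cells stood at 487, 655 and 743 CPM, each below the titled positive level, and the remaining 9 cells of the class were not given a level of their own, while a mixed titled control cluster of 107 cells with Ackr1 at 802 CPM stood at 601 CPM. The part of vessel type in the ratios was not tested.

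Ratios were smaller among monocyte or macrophage-like cells, and the titled control level rested on 133 cells. Iigp1 was at 439 CPM in titled positive and 25.0 CPM in titled control cells, a log2 ratio of 4.09 (3.43 to 4.94). Irgm1 was at 432 CPM in titled positive and 203 CPM in titled control cells, a log2 ratio of 1.08 (0.84 to 1.35). F830016B08Rik had 483 UMIs in titled positive and 0 in titled control cells, at least 7.59-fold higher against the floor. Tgtp1 had 432 UMIs in titled positive and 1 in titled control cells, a log2 ratio of 3.76 (1.86 to 9.66). The remaining log2 ratios were 1.93 for Igtp, 1.61 for Gm12250, 1.48 for Ifi47, 1.13 for Irgm2 and 0.93 for Tgtp2. BC023105 had 19 UMIs in titled positive and 0 in titled control cells, a difference that was not detectable at this depth. The clusters of the class differed in Ly6c2, a marker of monocytes that have recently left the blood: titled positive clusters with Ly6c2 at 3368 and 175 CPM had summed levels of 1823 and 1761 CPM, and titled control clusters with Ly6c2 at 4253 and 47.3 CPM had 755 and 262 CPM.

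T or NK cell-like cells differed least. Iigp1 was at 134 CPM in titled positive and 13.02 CPM in titled control cells, a log2 ratio of 3.23 (2.11 to 5.01). Ifi47 was at 241 CPM in titled positive and 245 CPM in titled control cells, a log2 ratio of -0.02 (-0.36 to 0.33). Irgm1 was at 213 CPM in titled positive and 146 CPM in titled control cells, a log2 ratio of 0.53 (0.12 to 0.99). The log2 ratio was 1.80 for Irgm2 and 1.31 for Igtp, while the intervals of Gm12250 (0.49), Tgtp2 (-0.27) and Tgtp1 (-0.44) included 0; F830016B08Rik had 14 UMIs in titled positive and 0 in titled control cells, and BC023105 had 2 in titled positive and 0 in titled control cells. The summed log2 ratio of 0.70 was 0.04 with free RNA subtracted at the estimated share, 1.46 without doublet removal and 1.15 with each cell named by its own markers, so a difference in this class depends on the processing. The T or NK cell-like clusters of titled positive brain stood at 1094 CPM (1027 to 1164) and 772 CPM (676 to 878).

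**Figure D4:**
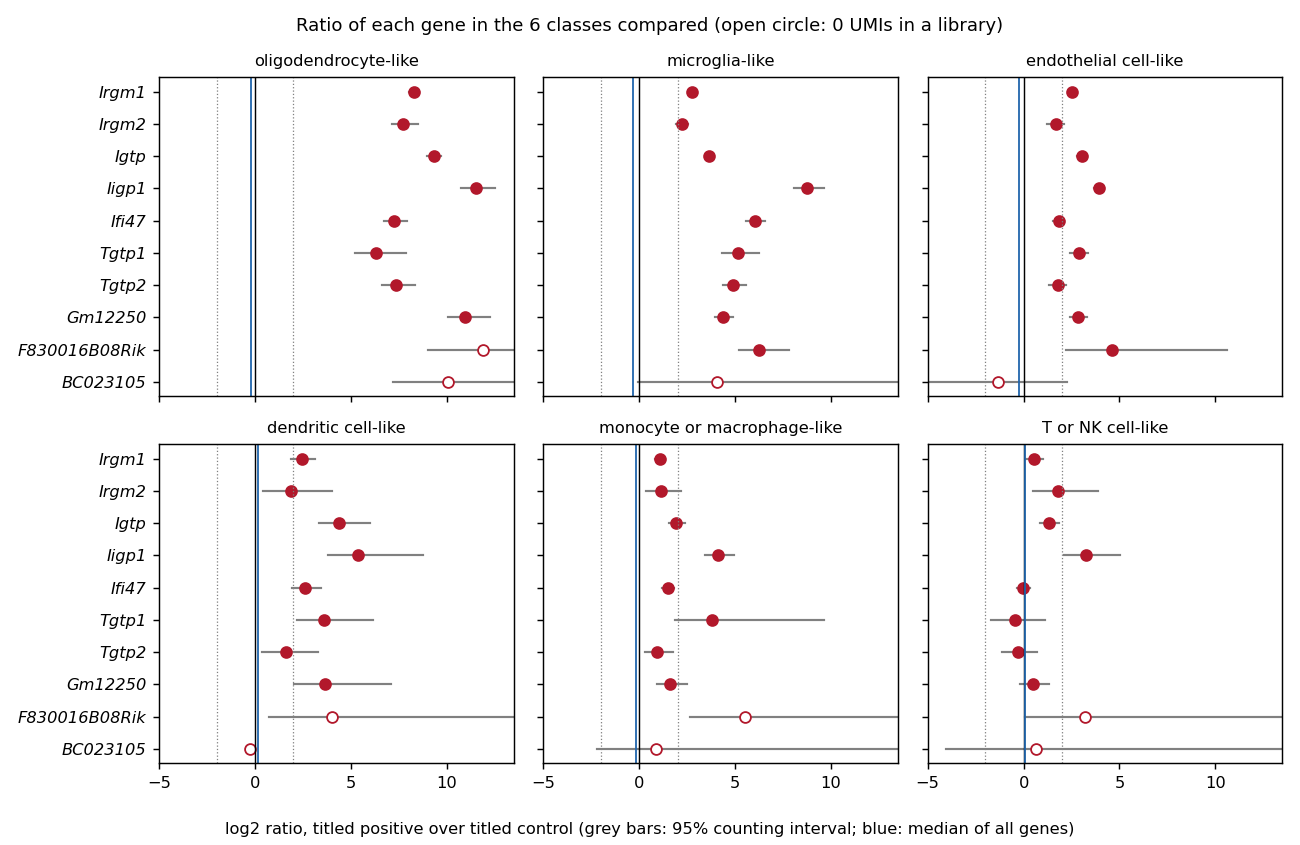
Log2 ratio of titled positive over titled control for each of the 10 genes in the 6 classes, with exact 95% intervals. The ratios run from 6.28 upward in oligodendrocyte-like cells, while in T or NK cell-like cells the intervals of Ifi47, Tgtp1, Tgtp2, Gm12250 and BC023105 include 0.

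Carcinoma-like cells held 65.4% of all UMIs of the 10 genes in titled positive brain, with 69.4% of all UMIs of its kept cells. Their 6 clusters ranged from 1720 CPM (1678 to 1762) to 3728 CPM (3686 to 3770). The highest was a cluster of 862 cells with the proliferation marker Mki67 at 20.5 CPM, while Mki67 stood between 19.7 and 283 CPM over the 6 clusters. The next highest, 778 cells at 2455 CPM, held Mki67 at 283 CPM, and the lowest, 375 cells, held it at 29.8 CPM. In the class as a whole Igtp was at 611 CPM, Irgm1 at 574 CPM, Iigp1 at 392 CPM, Ifi47 at 355 CPM, Irgm2 at 100.6 CPM and Gm12250 at 83.4 CPM. Oligodendrocyte-like cells held 12.3% of the member UMIs of titled positive brain with 4.85% of its UMIs. In titled control brain microglia-like cells held 23.2% of the member UMIs, endothelial-like cells 22.6% with 4.75% of its UMIs, and oligodendrocyte-like cells 4.06% with 48.2% of its UMIs. The neutrophil-like level of 629 CPM in titled positive brain was 263 CPM with free RNA subtracted, 34.8% of its member UMIs being left.

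The difference in oligodendrocyte-like cells was spread over most cells of the class. With each cell thinned to 1000 UMIs, 92.1% of titled positive cells (90.1 to 93.8) and 1.08% of titled control cells (0.768 to 1.48) held at least 1 UMI of the 10 genes, and without thinning 98.0% and 5.79% did. Neutrophil-like cells, the titled positive class with the lowest level, gave 50% (41.8 to 58.2) at the same thinning, with a median depth of 5567 UMIs before it. At least 3 different members were seen in 62.9% of titled positive and 0% of titled control oligodendrocyte-like cells. In endothelial-like cells 44.0% of titled positive and 2.18% of titled control cells held at least 3 members, and in microglia-like cells 32.9% and 0.217%. A titled positive oligodendrocyte-like cell had a median of 6 member UMIs per 1000, with the 10th percentile at 1, the 90th at 12 and the highest cell at 30, and 7.90% had none. Titled control oligodendrocyte-like cells had a median of 0 and at most 2. At least 1 member UMI was seen in 89.4% of titled positive and 14.4% of titled control microglia-like cells, and in 57.7% of titled positive and 42.9% of titled control T or NK cell-like cells.

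**Figure D5:**
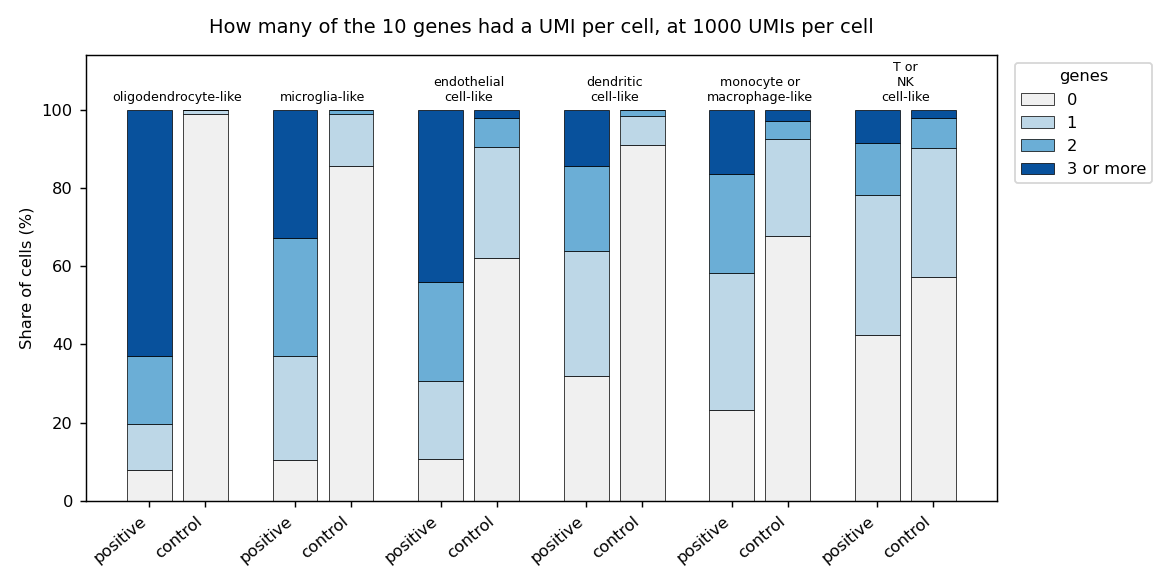
Number of the 10 genes with a UMI in a cell thinned to 1000 UMIs, as a share of cells (percent) in each class, titled positive and titled control. In oligodendrocyte-like cells 62.9% of titled positive and 0% of titled control cells hold at least 3.

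Other genes of the interferon pathways were taken from lists chosen with earlier results of these libraries known. Ifng, the gene of interferon gamma itself, was at 649 CPM in titled positive and 75.5 CPM in titled control T or NK cell-like cells, with UMIs in 37.8% and 9.89% of cells and a log2 ratio of 3.08 (2.57 to 3.69). Of the titled positive T or NK cell-like clusters, the one of 158 cells held Ifng at 850 CPM and the one of 43 cells at 43.1 CPM. In every other titled positive class with at least 50 cells Ifng was at or below 12.3 CPM. Ifngr1, the ligand-binding receptor chain, was at 29.0 CPM in titled positive and 27.0 CPM in titled control oligodendrocyte-like cells, a log2 ratio of 0.11 (-0.18 to 0.37). Ifngr2, the signalling chain, was at 7.75 CPM in titled positive and 10.5 CPM in titled control cells, a log2 ratio of -0.42 (-0.99 to 0.08). Both intervals included 0, in the class where the 10 GTPase genes differed most. In microglia-like cells Ifngr1 was lower in titled positive brain, at 186 CPM against 429 CPM in titled control, a log2 ratio of -1.20 (-1.33 to -1.08).

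Irf1, a transcription factor that interferon gamma induces and that itself drives many of its responses, differed in the same direction as the GTPase genes. It was at 187 CPM in titled positive and 1.60 CPM in titled control oligodendrocyte-like cells, a log2 ratio of 6.85 (6.40 to 7.38). In microglia-like cells the log2 ratio of Irf1 was 3.26 (3.10 to 3.43). Of the 13 genes of the interferon gamma ligand, receptor and signalling list, 12 were higher and 1 lower in titled positive oligodendrocyte-like cells, and 7 of the 11 with at least 50 UMIs were at least 4-fold higher. The list of type I and III interferon ligands and receptors, which also holds Tyk2, had 4 genes with at least 10 UMIs. Of these, 1 was higher and 3 lower, none by 4-fold. Ifnb1, the gene of interferon beta, had 0 UMIs in oligodendrocyte-like cells of both libraries.

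Of the related immunity-related GTPases outside the 10, 4 of 5 with at least 50 UMIs were at least 4-fold higher in titled positive oligodendrocyte-like cells. The highest ratio was that of Gm4951, at 203 CPM in titled positive and 0.211 CPM in titled control cells, and the lowest that of Irgq, at 3.10 CPM in titled positive and 5.57 CPM in titled control cells (log2 ratio -0.80). Guanylate-binding proteins, a further family of interferon-induced GTPases that works beside this one, were higher in titled positive oligodendrocyte-like cells for 11 of 11 genes, with a median log2 ratio of 6.56. They ranged from Gbp11, at 74.8 CPM in titled positive and 11.9 CPM in titled control cells, to Gbp10, with 26 UMIs in titled positive and 0 in titled control cells. All 7 with at least 50 UMIs were at least 4-fold higher. In the other 5 classes the median log2 ratio of this family was 6.39 in microglia-like, 2.89 in macrophage-like, 2.63 in endothelial-like, 2.59 in dendritic cell-like and 1.02 in T or NK cell-like cells. With genes at 0 in titled control at their bound, the median was 6.52 in oligodendrocyte-like, 5.85 in microglia-like and 2.73 in macrophage-like cells.

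Genes induced mainly by interferon gamma (antigen processing, chemokines and others) had a median log2 ratio of 7.31 in oligodendrocyte-like cells, or 5.98 with genes at 0 in titled control at their bound. All 13 were higher, from the tryptophanyl-tRNA synthetase gene Wars (0.37) to the chemokine gene Cxcl9, at 19.9 CPM in titled positive and 0.0422 CPM (1 UMI) in titled control cells, and 9 of the 10 with at least 50 UMIs were at least 4-fold higher. Genes induced mainly by type I interferon had a median of 6.04, and all 14 were higher, from Ifi44 (3.17) to Oas1a, with 43 UMIs in titled positive and 0 in titled control cells. Both groups respond to either interferon to some degree. In microglia-like cells the medians were 3.10 for the interferon gamma group and 1.92 for the type I group, and in T or NK cell-like cells 0.86 and -0.07. Autophagy genes, whose products help place the regulators and effectors on membranes, had a median of -0.20 in oligodendrocyte-like cells, and none of 11 was 4-fold apart: Becn1 had the highest log2 ratio, 1.32, and Gabarapl2 the lowest, -1.11.

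Genes that respond to cell dissociation were also higher in titled positive oligodendrocyte-like cells. All 14 immediate early and heat shock genes of the list were higher (median log2 ratio 2.49), and 8 of 14 were at least 4-fold higher, from Jund (0.80) to Ier3 (3.90). In microglia-like cells the median of this list was -1.27 and 4 of 14 were at least 4-fold lower in titled positive cells, while the summed log2 ratio of the 10 GTPase genes there was 3.90. In macrophage-like cells the median of the list was 0.03 and in dendritic cell-like cells -0.33. The part of dissociation in the oligodendrocyte-like result was not tested.

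Across the 18 class and library sums, genes among the 10 whose level on the log2(CPM + 1) scale followed the summed 10 genes most closely, of 13830 compared, were Gbp7 (r = 0.946), Irf1 (0.936), Psmb10 (0.921), Parp10 (0.920), Zbp1 (0.917), Tap1 (0.909), Gbp3 (0.903), Tapbpl (0.898) and Tap2 (0.894). These correlations describe 18 sums that share 2 libraries, their depth and their free RNA. Parp10, Zbp1 and Tapbpl stood on none of the lists already given. Zbp1, a sensor of nucleic acids, was at 254 CPM in titled positive and 1.22 CPM in titled control oligodendrocyte-like cells. Among the members, Igtp followed the sum of the other 9 most closely (r = 0.973), then Irgm1 (0.962) and Gm12250 (0.947), and BC023105, with the fewest UMIs, least (0.560).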

How the data were processed

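The deposited matrices hold UMI counts per gene and barcode, not normalized, and were used as deposited. Cell Ranger (no version) and GRCm38 are named per the submitters' processing notes. Annotation release, cell calling and strand setting: not given in the sources used here. Gene pairs that overlap or share sequence are therefore uncertain. The 10 genes, lists and tests were chosen with earlier results of these data known. The groups come from the sample titles.

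A barcode was kept from 200 genes upward and up to 20% mitochondrial UMIs (5 titled positive and 11 titled control barcodes failed). Scrublet, run with an expected rate of 0.1 because its default threshold called almost none in titled control, removed 402 titled positive (3.71%) and 911 titled control barcodes (8.75%). Each library was clustered alone in scanpy 1.11.5: 2000 variable genes, 30 principal components, 15 neighbours, Leiden resolution 1. Clusters were named from markers of 23 cell types by thresholds set after clusters were seen; 226 titled positive (2.17%) and 572 titled control cells (6.02%) were in mixed clusters and left out.

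Counts were summed per library and class of at least 50 cells. Log2 ratios used a pseudocount of 0.5 UMI, a count of 0 was set against a floor of 3 UMIs, and shares of cells were compared at 1000 UMIs per cell. The free RNA share of a class was the median, over markers of other classes at 50 CPM or more in the library, of their level in the class relative to the library. All members are named in each compared class; list genes are named by role and by the highest and lowest ratio in oligodendrocyte-like cells; alike genes needed 100 UMIs in a class and were ranked by Pearson correlation. A gene that these rules would name is not reported here. A gene was counted as 4-fold apart only with 50 UMIs. The alternatives tried were other scaling, pseudocount, filters, doublet handling, clustering resolution, naming of cells, thinning and free RNA. Python 3.11.15, numpy 2.4.6, scipy 1.17.1, pandas 2.3.3 and matplotlib 3.10.9 were used. The ratio and interval steps were tested on simulated class sums, and the summing of cells was not.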

Additional observations from a re-analysis of the deposited data

Results flagged for a closer look

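Classes with at least 50 cells in titled control brain, or in neither library, but fewer in titled positive brain were left out of the comparisons above, and in 5 of them the 10 genes stood above the titled control level. Fibroblast or meningeal-like cells (28 titled positive and 94 titled control cells) had a summed level of 7740 CPM (7361 to 8134) in titled positive and 666 CPM in titled control brain. Ependymal or choroid plexus-like cells (41 and 194 cells) had 4727 CPM (4447 to 5020) in titled positive and 341 CPM in titled control brain. Astrocyte-like cells (32 and 1875 cells) had 4100.2 CPM (3805 to 4413) in titled positive and 69.6 CPM (63.6 to 76.0) in titled control brain. Neuron-like cells (14 and 41 cells) had 1594 CPM (1413 to 1793) in titled positive and 75.0 CPM (38.8 to 131) in titled control brain. B or plasma cell-like cells (44 and 22 cells) had 1542 CPM (1404 to 1691) in titled positive and 116 CPM (61.5 to 198) in titled control brain. In these titled positive cells the estimated share of free RNA was 17.9%, 17.3%, 44.8%, 35.0% and 26.3% in the order given, and summed carcinoma markers stood at 20.1%, 14.2%, 33.3%, 39.8% and 49.7% of their level in carcinoma-like cells. The part of free RNA and of carcinoma markers in these levels was not tested.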

How the results depend on the processing

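No paired analysis was possible because there was 1 library per group. The direction of the summed log2 ratio was the same in all 6 classes under every alternative run. In T or NK cell-like cells it was 0.70 as reported, 1.46 without doublet removal, 1.15 with each cell named by its own markers and 0.04 (0.035) with free RNA subtracted at the estimated share. In dendritic cell-like cells it was 1.76 at clustering resolution 2 and 3.69 with cells thinned to 1000 UMIs, and without doublet removal no value could be had, since no titled control cluster took that name. In endothelial-like cells it was 2.92 without doublet removal and 2.88 as a mean over cells. In microglia-like cells it was 4.02 at resolution 2 and 4.03 with median-of-ratios scaling. In macrophage-like cells it was 2.04 with cells named by their own markers, 1.996 at resolution 2 and 1.56 with free RNA subtracted. In oligodendrocyte-like cells it was 11.50 with free RNA subtracted at the estimated share, 10.28 at 5% and 9.26 with median-of-ratios scaling. Without the barcodes that both libraries hold, an alternative chosen after seeing the data, it ran from 0.70 to 9.08. Shares of cells with a member UMI moved with depth: unthinned and at 2000 UMIs they were 98.0% and 95.5% in titled positive and 5.79% and 1.68% in titled control oligodendrocyte-like cells, and 99.8% and 98.1% in titled positive and 36.4% and 25.4% in titled control microglia-like cells. The median of genes induced by interferon gamma was 0.64 in T or NK cell-like and 7.90 in oligodendrocyte-like cells with free RNA subtracted, and 3.53 in microglia-like cells without the filter on low counts. The sign changed with free RNA subtracted for Irgm1 in T or NK cell-like cells (-0.32), other immunity-related GTPases in T or NK cell-like cells (-0.20), type I interferon induced genes in macrophage-like cells (-0.0677) and autophagy genes in microglia-like cells (0.0167). It changed without the filter for other immunity-related GTPases in dendritic cell-like (-0.48) and microglia-like cells (1.17) and autophagy genes in dendritic cell-like cells (0.0480). It changed with a pseudocount of 1 for BC023105 in T or NK cell-like (-0.0749) and macrophage-like cells (-0.0848). The cause of these changes was not tested. Depth limits the ratios whose titled control side rests on few member UMIs: 67 in dendritic cell-like, 239 in T or NK cell-like and 264 in oligodendrocyte-like cells.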
